A study of Homo sapiens with 6 samples.

Results

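The MTRNR2L genes are nuclear copies of a part of the mitochondrial genome that holds the 16S ribosomal RNA gene MT-RNR2. Within that rRNA lies a short reading frame for humanin, a peptide best known for protecting cells from apoptosis, and each MTRNR2L gene carries a humanin-like frame of its own. Copies of mitochondrial DNA in nuclear chromosomes are common in the human genome, and short reads from such copies are hard to tell apart from reads of the mitochondrial rRNA, which is among the most abundant RNAs of a cell.

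The 4 rows described here were taken by transcript accession from a deposited table of 3437 rows, each row being named as a 3′ UTR with a RefSeq accession, those of non-coding RNAs included. They are NM_001190702 (MTRNR2L8), NM_001190452 (MTRNR2L1), NM_001190487 (MTRNR2L6) and NM_001190472 (MTRNR2L3). They were chosen by their lower sense CPM in PIWIL2 KO and by their family, so the levels and ratios below are descriptions without a test. Short RNA was sequenced from 3 samples of Caco2 WT, an established colon epithelial cell line, and from 3 samples of PIWIL2 KO, a CRISPR/Cas9-edited derivative of it. Both were grown to confluency. PIWIL2 KO is a single clone, in which the study still found an unedited allele, so PIWIL2 was reduced rather than absent. The table gives 1 value per genotype and strand, as read counts scaled to the uniquely mapped reads of the library (CPM), and names no replicate. The values are taken here as pooled over the samples, whereas the study describes its sequencing results as averages over 3 replicates. The spread between samples is therefore unknown, and every comparison is between 2 pooled libraries of about 12900000 (Caco2 WT) and 13600000 (PIWIL2 KO) uniquely mapped reads, as estimated from the steps between low values. At these depths a single read stood for 0.0776 CPM in the Caco2 WT library and for 0.0738 CPM in the PIWIL2 KO library. An effect of the genotype cannot be told apart from any other difference between the 2 libraries or from the choice of clone.

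The 4 rows lie on 4 chromosomes of hg19, and the sequences were read from GRCh37, the same build. MTRNR2L1 covers chr17:22023463-22023991 on the plus strand and MTRNR2L6 covers chr7:142375138-142375550 on the plus strand. MTRNR2L3 covers chr20:55933496-55934020 on the minus strand. In the GENCODE annotation used here, these are 3′ UTRs of single-exon genes typed as protein coding. MTRNR2L8 covers chr11:10529434-10529698 on the minus strand, next to AMPD3, and its upper end was set at the stop codon of the reading frame that aligns with that of MTRNR2L1. RefSeq now lists all 4 as pseudogenes. For MTRNR2L1 and MTRNR2L6, the listed coordinate lies directly after the stop codon of the humanin-like frame. For MTRNR2L3 and MTRNR2L8, on the minus strand, the listed coordinate is the 3′ end. Their other end was set at the stop codon.

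The similarity to mitochondrial 16S rRNA that the gene names imply was present in all 4 rows. MTRNR2L8 aligned to MT-RNR2 from position 2708 to 2972 of the mitochondrial genome with 89.8% identity, 27 mismatches over its 265 bases and 0 gaps. Identity was 86.1% for MTRNR2L1 (529 bases), 83.9% for MTRNR2L6 (413 bases) and 81.7% for MTRNR2L3 (525 bases). Between the rows themselves, identity ran from 77.5% for MTRNR2L3 and MTRNR2L8 to 84.9% for MTRNR2L1 and MTRNR2L8.

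The stretch in which MTRNR2L8 equals the rRNA while the other 3 copies differ most is shown first, because a read over the whole of it would match MTRNR2L8 and the mitochondrial rRNA alike but none of the other 3 rows. Sequences run 5′ to 3′ along the RNA, and capitals mark bases that differ from MT-RNR2. The stretch lies at bases 186 to 215 of MTRNR2L8 after the stop codon.
MT-RNR2 (chrM:2893-2922, plus strand): attgatccaataacttgaccaacggaacaa
MTRNR2L8 (chr11:10529484-10529513, minus strand): attgatccaataacttgaccaacggaacaa
MTRNR2L1 (chr17:22023648-22023677, plus strand): attgaCccaataaTttgaccaacggaacaa
MTRNR2L6 (chr7:142375325-142375354, plus strand): attgaCccaataaTttgaTcaacggaacaa
MTRNR2L3 (chr20:55933812-55933841, minus strand): atCgaCccaataaTttgaTAaacggaGTaa
Here MTRNR2L1 differed from the rRNA at 2 of 30 bases, MTRNR2L6 at 3 and MTRNR2L3 at 7.

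The stretch in which MTRNR2L8 differs most from the rRNA is shown for contrast, since a read over it carries bases that separate the nuclear copy from the mitochondrial RNA.
MT-RNR2 (chrM:2769-2798, plus strand): acccacaggtcctaaactaccaaacctgca
MTRNR2L8 (chr11:10529608-10529637, minus strand): GTccacaggCcctaaactaTcaaacctgcG
MTRNR2L1 (chr17:22023524-22023553, plus strand): GcccGcaggCcctaaactaccaGacctgcG
MTRNR2L6 (chr7:142375200-142375229, plus strand): GcccacaggCcTtaaactacTGTCcctgca
MTRNR2L3 (chr20:55933928-55933957, minus strand): GccTacaggCcctaGCctCcTaTCcctgca
MTRNR2L8 and MTRNR2L1 each differed from the rRNA at 5 of 30 bases here, MTRNR2L6 at 7 and MTRNR2L3 at 9.

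The longest run identical to MT-RNR2 was 81 bases in MTRNR2L8, from base 185 to base 265, that is, up to the 3′ end of the row. It was 55 bases in MTRNR2L6, 41 in MTRNR2L1 and 32 in MTRNR2L3. Before base 185 of MTRNR2L8, by contrast, none of the 40-base windows plotted in the profile of identity reached full identity.

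**Figure D1:**
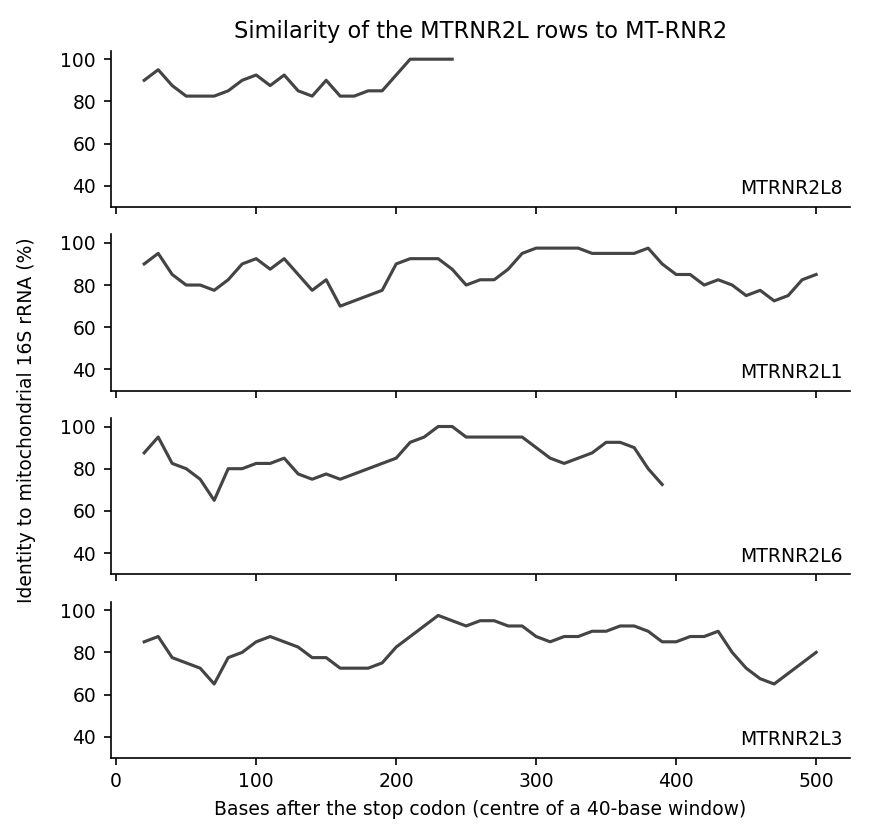
Identity of each 3′ UTR row to the mitochondrial 16S rRNA gene MT-RNR2 (y axis, percent) in 40-base windows against the distance of the window's centre from the stop codon (x axis, bases). MTRNR2L8 is the shortest row, at 265 bases, and ends in a run of full identity. MTRNR2L6 also reaches 100%, in the windows centred at bases 230 and 240. MTRNR2L1 reaches 97.5% in the windows plotted, none of which lies wholly within its identical run of 41 bases.

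Sense short RNA was lower in PIWIL2 KO in each of the 4 rows. MTRNR2L8 had 155.5 sense CPM in Caco2 WT, or about 2004 reads, and 21.0 sense CPM in PIWIL2 KO, or about 285 reads. The value in PIWIL2 KO was 0.135 of that in Caco2 WT, with an exact (Clopper-Pearson) 95% counting interval of 0.119 to 0.153, and the log2 ratio after adding 0.1 CPM to both values was -2.88. This interval, like those that follow, covers counting error only, because there is 1 pooled value per genotype. It also takes reads as whole and independent. Reads split between rows, or amplified reads that cannot be counted as separate molecules, do not meet this, so it may be too narrow. Read numbers are CPM divided by the worth of 1 read and are approximate.

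MTRNR2L1 had 22.95 sense CPM in Caco2 WT against 7.87 in PIWIL2 KO, a ratio of 0.343 (0.272 to 0.429). MTRNR2L6 had 5.53 and 1.89 sense CPM, a ratio of 0.342 (0.209 to 0.544). MTRNR2L3 had 2.10 and 0.81 sense CPM, a ratio of 0.386 (0.173 to 0.804), on about 27 and 11 reads. The counting intervals of MTRNR2L1, MTRNR2L6 and MTRNR2L3 overlapped each other, and each lay above that of MTRNR2L8. Their log2 ratios were -1.53, -1.50 and -1.27 in the same order.

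**Figure D2:**
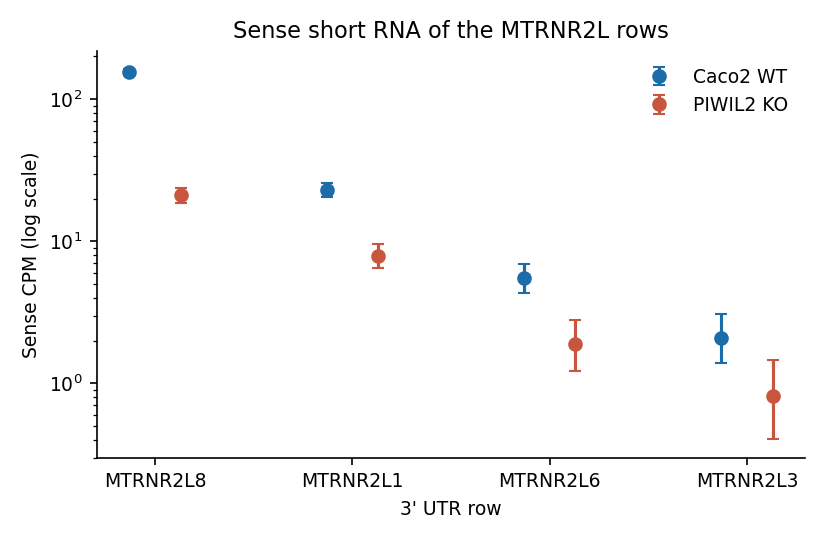
Sense CPM (y axis, log scale) of the 4 MTRNR2L rows in the pooled Caco2 WT and PIWIL2 KO libraries, with bars for exact 95% Poisson counting intervals and no replicate error. In every row the PIWIL2 KO value lies below the Caco2 WT value, from 155.5 against 21.0 CPM in MTRNR2L8 to 2.10 against 0.81 CPM in MTRNR2L3.

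The order of the levels was the same in both genotypes, with MTRNR2L8 first, then MTRNR2L1, MTRNR2L6 and MTRNR2L3. In Caco2 WT the counting intervals of neighbours in this order did not overlap. In PIWIL2 KO the separate intervals of MTRNR2L6 (1.23 to 2.78 CPM) and MTRNR2L3 (0.404 to 1.45 CPM) overlapped, although that of their ratio, 2.33 (1.11 to 5.24), stayed above 1 on about 26 and 11 reads. Per length of the row, MTRNR2L8 stood further above the others. It had 587 sense CPM per kb in Caco2 WT and 79.3 in PIWIL2 KO. MTRNR2L1 had 43.4 and 14.9 sense CPM per kb, MTRNR2L6 had 13.4 and 4.58, and MTRNR2L3 had 4.0 and 1.54.

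Together the 4 rows summed to 186 sense CPM in Caco2 WT against 31.6 in PIWIL2 KO, a ratio of 0.170 (0.153 to 0.188) and a log2 ratio of -2.56. MTRNR2L8 decided this value. Without it, the other 3 rows summed to 30.6 and 10.6 sense CPM, a ratio of 0.346 (0.283 to 0.420) and a log2 ratio of -1.52. MTRNR2L8 held 83.6% of the summed sense CPM in Caco2 WT (exact 95% counting interval 82.0 to 85.0%) and 66.5% in PIWIL2 KO (61.9 to 71.0%). The share of MTRNR2L1 went from 12.3% (11.1 to 13.7%) to 24.9% (21.0 to 29.4%).

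Ratios between copies inside a library do not depend on how the library was scaled. MTRNR2L8 stood at 6.78 times MTRNR2L1 in Caco2 WT (6.0 to 7.68 from counting error) and at 2.67 times in PIWIL2 KO (2.13 to 3.37). The ratio in Caco2 WT was thus 2.54 times that in PIWIL2 KO, and the counting intervals did not overlap. MTRNR2L6 stood at 0.241 of MTRNR2L1 in Caco2 WT (0.183 to 0.313) and at 0.240 in PIWIL2 KO (0.150 to 0.372). MTRNR2L3 stood at 0.0915 (0.0593 to 0.136) and 0.103 (0.0498 to 0.192). So MTRNR2L1, MTRNR2L6 and MTRNR2L3 differed between genotypes by a similar factor, while MTRNR2L8, the row with the largest share of sequence in common with the mitochondrial genome, differed by more. Whether the shared sequence had a part in this was not tested.

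**Figure D3:**
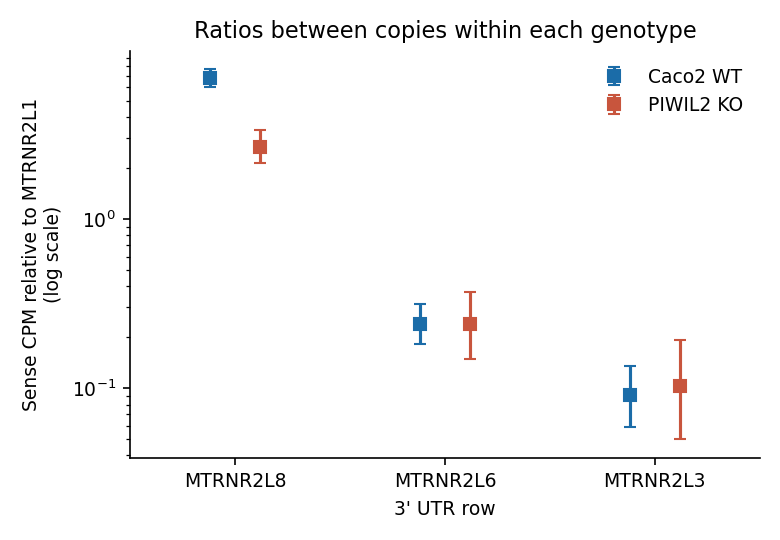
Sense CPM of MTRNR2L8, MTRNR2L6 and MTRNR2L3 relative to MTRNR2L1 within each pooled library (y axis, log scale), with exact 95% counting intervals and no replicate error. MTRNR2L8 moves from 6.78 in Caco2 WT to 2.67 in PIWIL2 KO, whereas MTRNR2L6 stays at 0.241 and 0.240.

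Antisense short RNA was listed at 0 CPM in both genotypes in all 4 rows. An expected count of up to about 3 reads can still give 0, which is 0.233 CPM for Caco2 WT and 0.221 CPM for PIWIL2 KO. Antisense RNA below this level could therefore be missed at this depth. Against the 155.5 sense CPM of MTRNR2L8 the signal was therefore nearly all on the sense strand. In the whole table, 175 of 3437 rows (5.09%) had any antisense CPM, so 0 antisense CPM was the usual value.

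The 186 sense CPM of the 4 rows in Caco2 WT were more than the 129 sense CPM of the other 2912 rows of protein-coding genes together, whereas in PIWIL2 KO those other rows summed to 118 sense CPM against 31.6 for the 4 rows. The 4 rows made up 3.38% of all sense CPM of the table for Caco2 WT and 0.426% for PIWIL2 KO. Among the 161 rows that averaged 0.3 sense CPM or more over the genotypes, 14 (8.7%) were at least 2-fold lower in PIWIL2 KO, and all 4 rows were among them. With a pseudocount of 1 CPM in place of 0.1, MTRNR2L3 had a log2 ratio of -0.78 and was no longer among them. Of the same 161 rows, 49 (30.4%) were lower by any amount, while 76 (47.2%) were once PIWIL2 KO was rescaled to the sense sum of all rows in Caco2 WT and 34 (21.1%) once it was rescaled to that of other protein-coding rows. Since the 4 rows were chosen with this comparison known, nothing is read from these counts. The median log2 ratio was 0.48 over the 161 rows, -0.07 over 33 other protein-coding rows and -1.52 over the 4 rows.

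**Figure D4:**
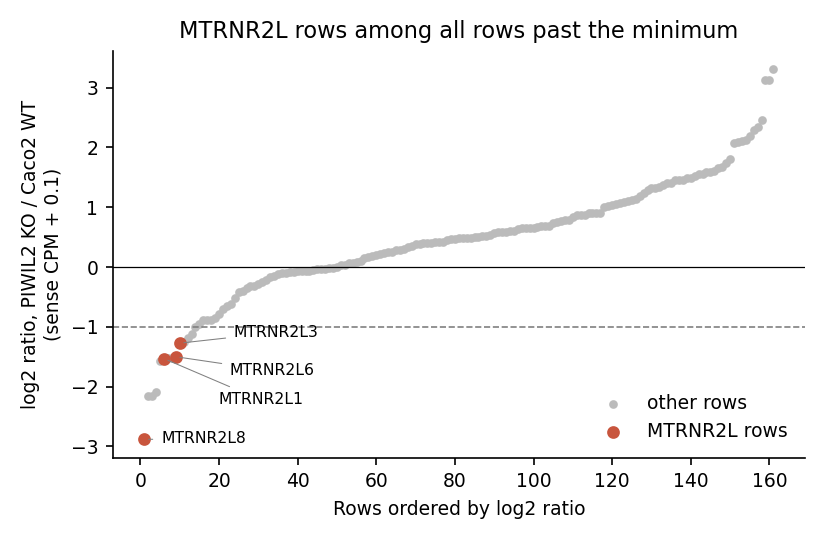
Log2 of PIWIL2 KO over Caco2 WT sense CPM, after adding 0.1 CPM (y axis), for the 161 rows that averaged 0.3 CPM or more, ordered from lowest to highest (x axis). The 4 MTRNR2L rows, in red, lie below the dashed line that marks a 2-fold lower value, and MTRNR2L8 is the lowest of all at -2.88.

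Among 103 rows outside the family with an average of 1 sense CPM or more, those with a log2 ratio nearest to that of the summed MTRNR2L rows were still more than 1 log2 unit away. They were the 2 rows of NCS1, a neuronal calcium sensor, which repeat 1 3′ UTR and were both listed at 3.99 and 1.33 sense CPM, a log2 ratio of -1.52. The microRNA rows MIR1307, at 7.29 and 3.99 sense CPM, and MIR92A2, at 2.95 and 1.66, came next. The sum was decided by MTRNR2L8, and the NCS1 ratio was near those of MTRNR2L1 (-1.53) and MTRNR2L6 (-1.50). Among the 161 rows that averaged 0.3 sense CPM or more, FBXO31 (-2.16), MIR339 (-2.08) and KCTD2 (-1.57) also lay below MTRNR2L1. These genes are named here after their values were seen, and were listed at 0.07, 0.07 and 0.22 sense CPM in PIWIL2 KO. With 1 value per genotype any such likeness rests on a single ratio.

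RefSeq lists 13 MTRNR2L genes, of which 2 more than the 4 have a row in the table. MTRNR2L10 was listed at 0.32 sense CPM in Caco2 WT and 0.16 in PIWIL2 KO, or about 4 and 2 reads, a ratio of 0.500 with a counting interval of 0.051 to 3.30 that includes 1. MTRNR2L4 was listed at 0.03 and 0 sense CPM, which is less than 1 read. Both had 0 antisense CPM. The other 7 genes were not analysed here. Over the 6 rows, the order by identity to MT-RNR2 was also the order by sense CPM in Caco2 WT. MTRNR2L10 at 81.5% and MTRNR2L4 at 61.7% identity came after the 4 rows above. Like that of MTRNR2L8, the upper end of MTRNR2L4 was set by the aligned reading frame, which gave 763 bases. Its alignment began at position 2380 of the mitochondrial genome, against 2708 for MTRNR2L8. In 40-base windows its identity lay between 35% and 92.5%, so its 61.7% may depend on where that end was set. The 6 rows share libraries and much of their sequence, so this order is a description, and the part of shared sequence in the levels was not tested.

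Exact matches in short stretches gave a somewhat different order. Of the stretches of 16 bases in each row, 41.6% in MTRNR2L8, 21.6% in MTRNR2L6, 19.5% in MTRNR2L1, 18.9% in MTRNR2L10, 11.2% in MTRNR2L3 and 1.20% in MTRNR2L4 occur in the mitochondrial genome. MTRNR2L8 had both the highest share and the highest level. MTRNR2L4 had both the lowest, over the 763 bases set by its aligned reading frame. By contrast, MTRNR2L10 had a share near that of MTRNR2L1 at a level of 0.32 against 22.95 sense CPM in Caco2 WT. Stretches of 16 bases that occur at only 1 place in the whole genome made up 38.0% in MTRNR2L8, 25.5% in MTRNR2L1, 21.8% in MTRNR2L3, 19.5% in MTRNR2L10, 13.4% in MTRNR2L4 and 9.55% in MTRNR2L6. With stretches of 25 bases the shares were 86.3% in MTRNR2L1, 74.3% in MTRNR2L3, 68.5% in MTRNR2L8 and 39.8% in MTRNR2L6. Reads from much of each row can thus be placed on it alone only if they are long enough, and the lengths of the reads behind these values were not analysed here.

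**Figure D5:**
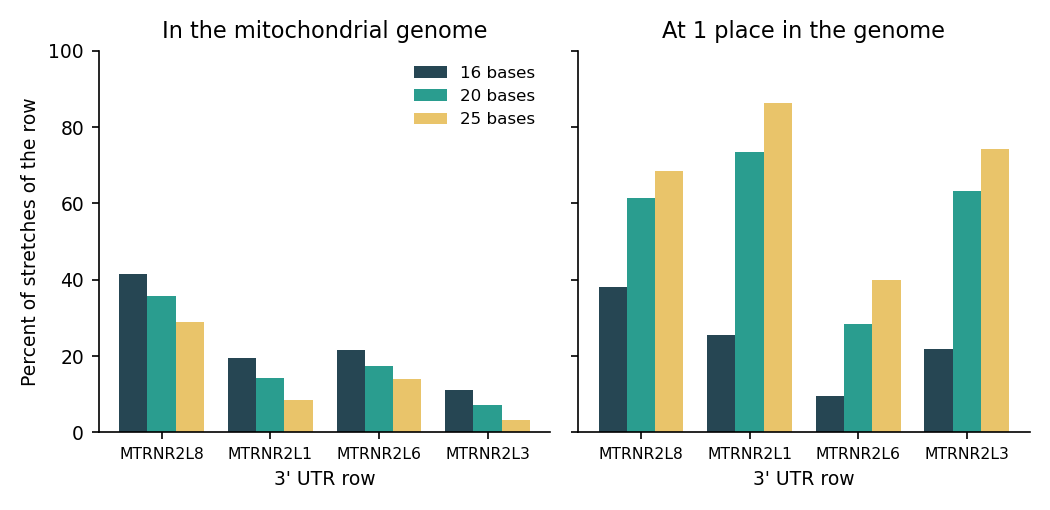
Percent of all stretches of 16, 20 and 25 bases of each row (y axis) that occur in the mitochondrial genome (left) or at only 1 place in the whole genome on either strand (right). MTRNR2L8 shares most with the mitochondrial genome, at 41.6% of 16-base stretches, and MTRNR2L6 has the fewest stretches of its own, at 9.55%.

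The way reads with several matches were divided bears on these values. Of the sense values above 0 in the table, 883 of 1489 (59.3%) in Caco2 WT and 859 of 1469 (58.5%) in PIWIL2 KO were below the worth of 1 read, so reads were split between rows or places. How they were split is not given in the sources used here, and the part of split reads in the 4 rows was not tested. Over all 3437 rows, the 200 bases upward from the start coordinate held at least 1 stretch of 16 bases from the mitochondrial genome in 24 rows. Among them were the 6 MTRNR2L rows. This window was taken whatever the strand or length of a row. It begins at the 3′ end of minus-strand rows and runs past the end of short ones, so it does not compare like parts. The window with the most, 137 of 185 stretches, was that of NR_106781, named here after its values were seen. That row was listed at 0 sense CPM in both genotypes. MTRNR2L8 came next with 88 of 185 stretches. The 17 others held 1 or 2 such stretches each, and none of them reached 0.3 sense CPM in either genotype.

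Rows of nuclear genes that serve the mitochondrion had at most 0.18 sense CPM. Of 31 such rows, 17 (54.8%) were above 0 CPM in any column, against 1835 of all 3437 rows (53.4%), so that share is near the background. The lists were drawn up with earlier results of these data known. No row was named for the humanin partners FPR2, FPR3, IL6ST, CNTFR, IL27RA, BAX, BID, BCL2L11 or IGFBP3, which are receptors of humanin or proteins it binds. Of 11 rows of mitochondrial ribosomal proteins, 2 were above 0 CPM, namely MRPL3 at 0.08 and 0.07 sense CPM and MRPL57 at 0 and 0.07. Of 17 rows of oxidative phosphorylation subunits, 13 were above 0. They came from 7 genes, since those of UQCRB, ATP5MC3 and COX7A2 repeat a 3′ UTR start. Some were lower and others higher in PIWIL2 KO, and nothing is read from these directions. The highest of the 13, an ATP5MC3 row of ATP synthase, was listed at 0.01 and 0.18 sense CPM. The others above 0 belonged to UQCRB, ATP5PB, ATP5MG, ATP5MF-PTCD1, COX7A2 and NDUFA2, with no sense value over 0.15 CPM. Of 3 rows for mitochondrial RNA handling, 2 were above 0, both of TFAM, a mitochondrial transcription factor, at 0.08 and 0.04 sense CPM. None of these rows reached a mean of 0.3 CPM, so a change in them was not detectable at this depth.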

How the data were processed

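Per the labels, adapters were trimmed with cutadapt 1.15 and hg19 was the build. The authors ran piPipes on the trimmed reads and deposited CPM for the sense strand and for the antisense strand (CPM equals RPM, since the counts are reads), scaled to reads uniquely mapped to the genome, as 4 pooled columns with no replicate values. The piPipes version and its handling of reads with several matches are not given in the sources used here.

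The worth of 1 read was taken as the step that fits most sense values between 0.06 and 1.5 CPM. At this step 76.6% of 542 such values in Caco2 WT and 71.7% of 545 in PIWIL2 KO were whole reads within 0.006 CPM, so no count test was run. Ratios have exact intervals conditional on the summed reads, and log2 ratios used a pseudocount of 0.1 CPM. The steps and intervals were checked on simulated whole reads in independent rows, so the check does not cover split or shared reads. The 3′ UTRs were aligned to MT-RNR2 of GRCh37, whose mitochondrial sequence can differ from that of hg19, with Biopython 1.88 in Python 3.11.15. Stretches were counted on both strands.

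Accessions were matched to symbols in RefSeq (GRCh38) for 3382 of 3437 rows. MTRNR2L1, MTRNR2L3, MTRNR2L6 and MTRNR2L10 were named by position in GENCODE, and MTRNR2L8 and MTRNR2L4 as the RefSeq MTRNR2L gene of their chromosome with shared neighbours. The members and lists were chosen with earlier results of these data known. Named by rule were the members, other MTRNR2L rows and list rows above 0. So were the 4 other rows with a mean of at least 1 sense CPM nearest in log2 ratio to the summed members. Rows named after their values were seen are marked as such.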

Additional observations from a re-analysis of the deposited data

How the results depend on the processing

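No paired analysis was possible because samples were pooled within genotypes before deposit, so no replicate could be left out either. All 4 rows were lower in PIWIL2 KO with a minimum mean of 1 CPM and with PIWIL2 KO rescaled to all sense rows, and a pseudocount of 0.01 or 1 CPM cannot change which value is lower. With PIWIL2 KO rescaled to the sense sum of all rows, a log2 shift of -0.43, the log2 ratio was -2.98 for the summed rows, -1.95 for MTRNR2L1 and -3.31 for MTRNR2L8. Without MTRNR2L8, the log2 ratio of the sum was -1.52. Rescaling to other protein-coding rows, a shift of 0.13, gave -2.42 for the sum and was not run row by row for the members. The number of rows at least 2-fold lower was 14 of the 161 rows past the minimum of 0.3 CPM. It was 18 with a pseudocount of 0.01 CPM and 5 with 1 CPM, which leaves out MTRNR2L3 at -0.78. It was 21 with PIWIL2 KO rescaled to all sense rows, 44 with no minimum and 6 with a minimum mean of 1 CPM. The minimum and the rescaling also change which rows enter. With 1 row per 3′ UTR start, an alternative chosen after seeing the data, it was 12 of 153. With 20-base stretches, the share found in the mitochondrial genome was 14.3% for MTRNR2L1, 7.11% for MTRNR2L3 and 17.5% for MTRNR2L6. With 25 bases it was 8.51%, 3.19% and 13.9%, and 29.0% for MTRNR2L8, as longer stretches match less often. The antisense sum gave no ratio, since it is 0 in both genotypes.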
